A study of Mus musculus with 16 samples.

Results

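Transcripts of the St8sia sialyltransferase family (St8sia1 to St8sia6) and of the neural cell adhesion molecules Ncam1 and Ncam2 were examined in a cultured mouse line named preSC, a precursor of small cell lung cancer. These 8 genes were taken by symbol from the 17655 genes listed, and were chosen with their levels in both groups known, because St8sia2 was among the strongest rises with Wnt5a. Differences between the groups are therefore given for them as a description, without a test. RNA was sequenced from preSC infected with an empty lentivirus (empty, 8 samples) and from preSC infected with a lentivirus carrying Wnt5a, a secreted Wnt ligand (Wnt5a, 8 samples). In both groups the cells were Chga-positive lung neuroendocrine cells, null for Rb1 and Trp53 and heterozygous null for Rbl2, and the medium of both held doxycycline (1 µg/mL) during the last 48 hours. The labels do not say which promoter drives Wnt5a or whether either line is a clone or a pool.

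Polysialic acid is a long chain of sialic acid residues that is built in the Golgi on a few glycoproteins, above all on NCAM, the product of Ncam1. The chain is large and charged and loosens adhesion between cells; it is typical of the developing nervous system and of neuroendocrine tumours, including small cell lung cancer. St8sia2 and St8sia4 encode the polysialyltransferases that build it. Other members of the family add single sialic acids or short chains to gangliosides, the sialylated sphingolipids, or to glycoproteins.

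The promoters of the 2 polysialyltransferase genes are shown because both genes serve the same reaction, while St8sia2 levels separated the groups and St8sia4 levels overlapped. Each is the 250 bases before the RefSeq start in GRCm38.p6, read 5′ to 3′ on the minus strand, which is the strand of both genes. Capitals mark GC boxes, the letters GGGCGG searched on both strands.
St8sia2 (chr7:74013683-74013932): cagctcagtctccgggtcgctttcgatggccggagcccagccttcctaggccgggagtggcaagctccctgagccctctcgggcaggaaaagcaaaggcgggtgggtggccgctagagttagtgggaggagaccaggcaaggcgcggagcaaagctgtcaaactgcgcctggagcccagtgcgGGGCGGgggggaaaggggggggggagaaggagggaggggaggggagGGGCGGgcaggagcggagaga
St8sia4 (chr1:95667595-95667844): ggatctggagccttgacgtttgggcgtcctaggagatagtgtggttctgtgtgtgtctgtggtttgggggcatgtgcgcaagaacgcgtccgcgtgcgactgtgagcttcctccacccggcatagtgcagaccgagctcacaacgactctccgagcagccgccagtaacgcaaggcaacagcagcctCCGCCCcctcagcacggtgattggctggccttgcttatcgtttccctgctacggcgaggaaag
The St8sia2 window held 2 GC boxes and the St8sia4 window 1, against at least 1 in 32.7% of the 32851 promoter windows of this length. GC content was 68.8% for St8sia2 and 60.4% for St8sia4. The TCF/LEF core CTTTGA (13.8% of windows), the AP-1 element TGANTCA (6.75%) and the TATA box TATAAA (12.4%) had no match in either window on either strand. The E-box CANNTG (66.2% of windows) had 1 match in St8sia4 and none in St8sia2. These are matches of letters, not measured sites.

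Within each group, counts differed little beyond sampling noise among samples 1 to 4 and among samples 5 to 8 (chi-square per degree of freedom 0.987 to 1.05 within such sets and 5.23 to 5.44 across them). Each set was averaged and counted as 1 sample, called library A (samples 1 to 4) and library B (samples 5 to 8), so that n = 2 per group. What distinguishes A from B is not in the labels, so the spread between them may be technical or biological. Reads per sample ranged from 7526676 to 8181010 in empty and from 8743431 to 8859862 in Wnt5a. Levels are normalised read counts, that is reads divided by 1 factor per sample, and log2 differences are on the scale log2(value + 1). Wnt5a itself was at 144 and 99.8 in empty libraries A and B and at 1049 and 1509 in Wnt5a libraries A and B (limma adjusted p = 0.0010; exact two-sided permutation p = 0.333, the smallest that 2 against 2 allows). Of 10 neuroendocrine markers all 10 were expressed, at a summed level of 64169 to 65018 in empty and 60643 to 63255 in Wnt5a, with Chga at 4043 ± 462 and 3403 ± 561 (SD, n = 2 per group). Of 15 markers of other cell types 13 were listed and 5 reached a mean of 10; their summed level was 1897 to 2210 in empty and 1931 to 1938 in Wnt5a, most of it from Mbp and Dcn, while Col1a2, Cdh5 and Scgb1a1 were at or near 0. Dcn, a fibroblast marker, was at 597 and 340.2 in empty A and B and at 241 and 246 in Wnt5a A and B. The collagen gene Col1a1 and Pdgfrb, on the same list, were close to absent. Their mean levels in empty and Wnt5a were 2.88 and 0.469 for Col1a1 and 1.43 and 1.64 for Pdgfrb. The part of these markers in the results was not tested. In such bulk RNA, fewer cells of a kind and less RNA per cell cannot be told apart.

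**Figure D1:**
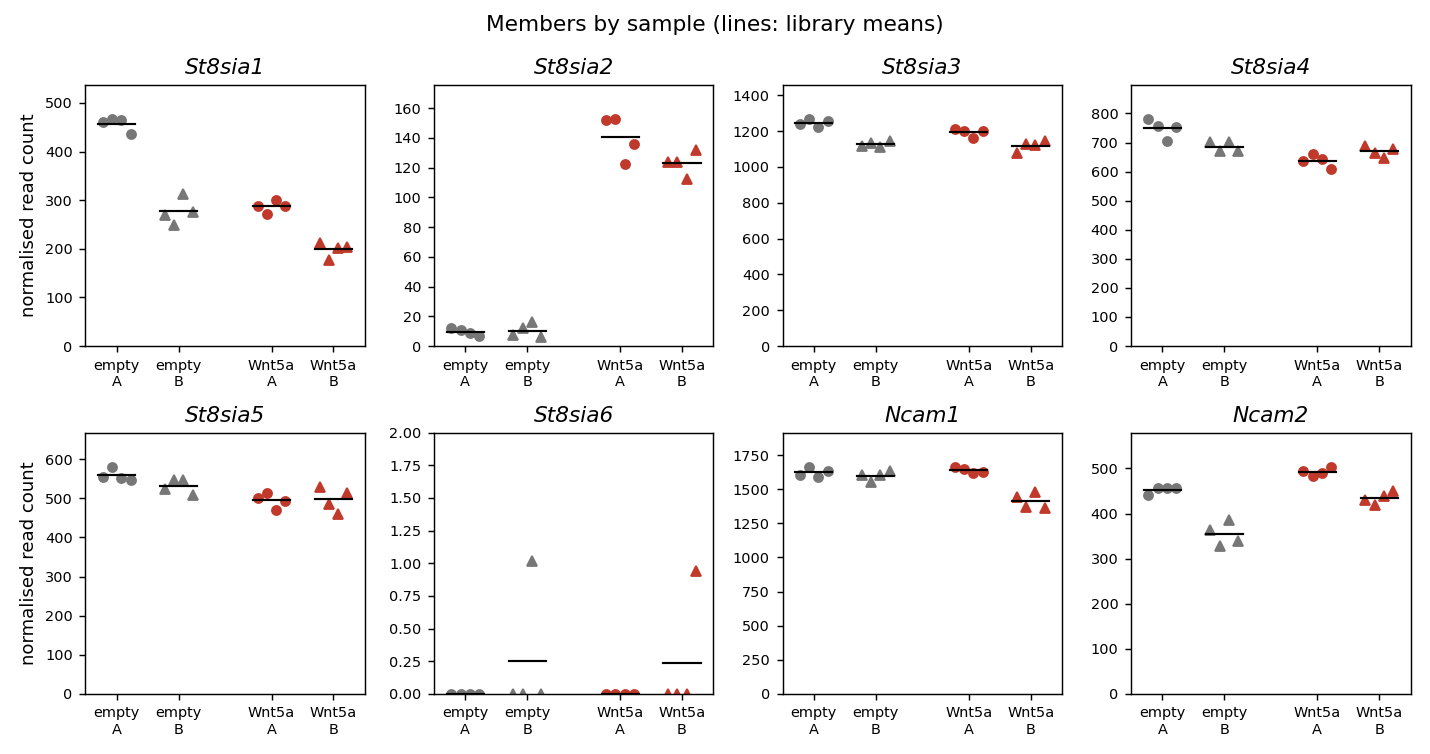
Normalised read count of each of the 8 genes in each of the 16 samples (y axis, starting at 0, scaled per gene), by group and library (x axis); circles are samples of library A, triangles samples of library B, grey is empty, red is Wnt5a, and black lines are library means. St8sia2 sits at 6.14 to 16.2 in empty and at 112 to 153 in Wnt5a, and the other 7 genes overlap between the groups. The means of St8sia1, St8sia3, Ncam1 and Ncam2 are also higher in library A than in library B in both groups. In the main limma fit of A against B, St8sia1 passed (adjusted p = 0.015). Ncam2 (adjusted p = 0.0500144), St8sia3 (adjusted p = 0.139) and Ncam1 (adjusted p = 0.217) did not.

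St8sia2, the polysialyltransferase best known from embryonic brain, had few reads in empty cells and more than 10 times as many in Wnt5a cells. Across the 8 empty samples its level was 6.14 at the lowest, 9.92 at the median and 16.2 at the highest. Across the 8 Wnt5a samples it was 112 at the lowest, 128 at the median and 153 at the highest. The groups did not overlap, and every Wnt5a sample was several times above every empty sample. By library the level was 9.65 and 10.4 in empty A and B and 141 and 123 in Wnt5a A and B. The mean thus went from 10.0 ± 0.547 to 132 ± 12.6 (SD, n = 2), or by 3.59 log2 units (SE 0.16), at rank 34 among the rises of the 12357 genes tested. The ratio of the means was 13.1. The empty level rests on few reads, 6 to 16 per sample and 76 in all, against 120 to 162 per sample and 1123 in all in Wnt5a. The Wnt5a library with more Wnt5a (B, 1509) was the one with less St8sia2, and a relation between these levels was not tested.

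St8sia4, the polysialyltransferase that predominates in many adult tissues, was abundant in both groups and differed little. Its level ran from 669 through a median of 704 to 781 in the empty samples and from 607 through 655 to 689 in the Wnt5a samples. Samples of both groups overlapped between 669 and 689. Library values were 750 and 685 in empty A and B and 637 and 670 in Wnt5a A and B, a log2 difference of -0.13 (SE 0.08). St8sia4 lies on chromosome 1, whose 689 tested genes had a median log2 difference of -0.17; with the chromosome median removed the difference of St8sia4 was 0.04, so its direction is not settled.

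The make-up of polysialyltransferase transcripts thus differed between the groups, which follows from the St8sia2 values and is no separate finding. Per kb of the longest transcript (5368 bases for St8sia2, 10027 for St8sia4), St8sia2 was 2.35% and 2.76% of the sum of both in empty A and B, and 29.2% and 25.5% in Wnt5a A and B. The share depends on the lengths assumed: without division by length the means were 1.38% in empty and 16.8% in Wnt5a, and per coding length 1.33% and 16.2%. On each of these 3 scales St8sia4 supplied the larger part in both groups. The sum of both per kb of transcript was 76.6 and 70.3 in empty and 89.7 in each Wnt5a library. The groups lay closer on the other scales. Per kb of coding length the sum was 705 and 646 in empty A and B and 716 and 731 in Wnt5a A and B. Without division by length it was 759 and 696 in empty and 778 and 793 in Wnt5a.

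St8sia1, the GD3 synthase, which opens the b-series of gangliosides, differed between libraries A and B by about as much as between the groups. Its level ran from 249 through a median of 375 to 467 in empty and from 178 through 243 to 301 in Wnt5a. The groups overlapped, because empty library B (249 to 314) lay at the height of Wnt5a library A (273 to 301). By library it was 457 and 277 in empty A and B and 287 and 199 in Wnt5a A and B, a log2 difference of -0.57 (SE 0.26). In same-lettered libraries Wnt5a was lower, with log2 differences of -0.67 for library A and -0.48 for library B, while A exceeded B by 0.72 in empty and 0.53 in Wnt5a.

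St8sia3, which adds short sialic acid chains to glycolipids and glycoproteins and is typical of brain, had the highest level of the family per kb of transcript. It ran from 1112 through 1185 to 1267 in empty and from 1079 through 1151 to 1213 in Wnt5a. The ranges largely coincide, and the log2 difference was -0.04 (SE 0.08). St8sia5, a ganglioside sialyltransferase acting late in that pathway, ran from 509 through 548 to 581 in empty and from 461 through 498 to 529 in Wnt5a. Its samples overlapped between 509 and 529, and the log2 difference was -0.14 (SE 0.08), with library values of 559 and 532 against 495 and 497. St8sia6, which acts mainly on O-linked glycans, had 1 read in all empty samples together and 1 in all Wnt5a samples. That is below the floor of 3 reads, so it was not detectable at this depth in either group and no fold is given.

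Ncam1, the main carrier of polysialic acid and the gene of the clinical marker CD56, was highly expressed in both groups. It ran from 1555 through a median of 1608 to 1666 in empty and from 1365 through 1550.5 to 1665 in Wnt5a. Wnt5a library A, at 1640.0, stood with the empty libraries (1625 and 1601), and only Wnt5a library B, at 1415, stood below them. The log2 difference was -0.08 (SE 0.09), within the spread of the Wnt5a libraries. Gene counts do not separate the isoforms of Ncam1. Ncam2, its paralog best known from olfactory neurons, ran from 328 through 413 to 458 in empty and from 419 through 467 to 504 in Wnt5a. Its library values were 453 and 354 in empty A and B and 493 and 435 in Wnt5a A and B, so that empty A lay above Wnt5a B and the groups overlapped. The log2 difference was 0.21 (SE 0.13).

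Counted over the 7 genes that passed the filter of a mean of at least 10, 2 were higher and 5 lower in Wnt5a, with a median log2 difference of -0.08 against 0.0026 for all genes tested. Only St8sia2 (1 of 7) had no overlap between the 8 empty and the 8 Wnt5a samples, a state shared by 12.4% of all genes tested. Over library means, 3 of 7 did not overlap (St8sia2, St8sia4 and St8sia5), against 44.2% of genes tested. Apart from St8sia2 the differences reached at most 0.57 in size on the log2 scale. Nothing is read from these counts, since the genes were chosen on the same contrast.

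**Figure D2:**
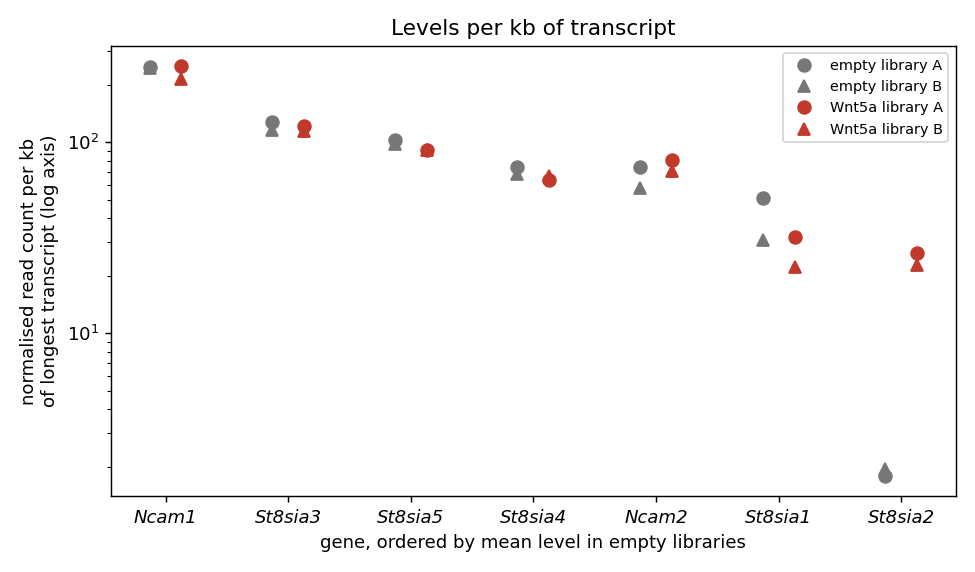
Normalised read count per kb of the longest protein-coding transcript (y axis, log scale) for the 7 genes above the filter, ordered by their mean in empty libraries (x axis); circles are library A, triangles library B, grey is empty and red is Wnt5a. Ncam1 leads at 246 in empty and St8sia2 moves from 1.87 in empty to 24.5 in Wnt5a, level with St8sia1.

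Compared per kb of the longest transcript, the order of levels in empty libraries was Ncam1 (246 ± 2.62), St8sia3 (122 ± 8.71), St8sia5 (100.4 ± 3.52), St8sia4 (71.6 ± 4.52), Ncam2 (66.1 ± 11.5), St8sia1 (40.9 ± 14.2), St8sia2 (1.87 ± 0.103) and St8sia6 (SD, n = 2). In empty, St8sia4 and Ncam2 overlapped between libraries, and the other neighbours in the order did not. In Wnt5a the order was the same except that Ncam2 (76.0 ± 6.78) stood above St8sia4 (65.2 ± 2.32), and St8sia2 (24.5 ± 2.35) overlapped with St8sia1 (27.0 ± 6.93). The order depends on the length used: per kb of coding sequence St8sia3 led in both groups, at 1041 in empty and 1014 in Wnt5a, followed by St8sia4 at 666 and 607 and Ncam1 at 633 and 599.7 per coding kb.

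The contrast between libraries A and B was not used to choose the genes and was tested across all genes, with the group as a term (limma adjusted p under 0.05, Benjamini-Hochberg). This fit takes library A of both groups as 1 set and library B as another, by the sample numbers alone; the labels do not say that equal numbers share a source. St8sia1 was the 1 of 7 members that passed, against 7.41% of all genes tested, and was higher in library A by 0.62 log2 units (SE 0.07; limma adjusted p = 0.015). It was higher in A in both groups. The call was lost without the filter on low values (adjusted p = 0.122) and without the trend in limma's eBayes (adjusted p = 0.191). Ncam2 was higher in A by 0.27 (SE 0.06; limma adjusted p = 0.0500144, just above the threshold), and passed with edgeR on the recovered reads (adjusted p = 0.0487) and with a minimum value of 50 (0.0454), but not with DESeq2 (0.195), without the filter (0.151) or without the trend (0.202). St8sia2 differed by 0.05 between A and B (SE 0.15; limma adjusted p = 0.862), and Ncam1 by 0.12 (SE 0.06; limma adjusted p = 0.217).

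Genes around these members were then compared to ask whether the rest of the sialylation machinery differed between the groups. Of 62 genes in 7 lists, 53 were expressed enough to test and 0 passed in limma, against 2.06% of all genes tested. An unadjusted limma p under 0.05 was found for 9 (17.0%), as for 16.1% of all genes tested. Of these list genes edgeR called 0 and DESeq2 called 2, against 246 and 538 of all 12357 genes tested. Of the 53, 21 were higher and 32 lower in Wnt5a, with a median log2 difference of -0.06 against 0.0026 over all genes. The 16 samples did not overlap for 7 of the 53, against 12.4% of all genes tested.

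The supply of the sialic acid donor, from the epimerase Gne through Nans, Nanp and Cmas to the Golgi transporter Slc35a1, was expressed throughout. Of 10 genes tested in this list 4 were higher and 6 lower, with 0 past the threshold (2 at an unadjusted p under 0.05) and a median of -0.05. Cmas, which activates sialic acid to its CMP form, was at 937 ± 24.3 in empty and 964 ± 19.0 in Wnt5a (SD, n = 2), 0.04 apart in log2 units (limma adjusted p = 0.861). Gne, the rate-limiting enzyme, was at 403 ± 44.0 and 360.3 ± 31.2, a difference of -0.16 (limma adjusted p = 0.577). Samples of both groups overlapped for both genes.

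Among the other sialyltransferases, 11 of 14 were tested, 4 were higher and 7 lower, and 0 passed in limma (3 at an unadjusted p under 0.05), with a median of -0.08. St3gal5, the GM3 synthase that makes the substrate of St8sia1, had the highest read count of the list (not corrected for length, as for the genes named for this below), at 632 ± 10.1 in empty and 599.6 ± 2.02 in Wnt5a (limma adjusted p = 0.713). St6galnac2, which sialylates O-linked glycans, was 1 of the 2 genes that DESeq2 called and is named for that. It was at 228 and 198 in empty A and B and 302 and 308 in Wnt5a A and B, 0.52 apart in log2 units (limma adjusted p = 0.063, edgeR 0.064, DESeq2 0.010). All 8 Wnt5a samples lay above all 8 empty samples, but the gene lies on chromosome 11, where the median of 1020 tested genes was 0.17. With the chromosome median removed its difference was 0.35 (limma adjusted p = 0.225). St6gal2, too low for the test, had 0 and 2 reads in empty A and B against 59 and 67 in Wnt5a A and B. Its 16 samples, from 2 libraries per group, did not overlap between the groups. In the fit without the filter on low values it rose (limma adjusted p = 0.020), in a fit with 130 higher and 16 lower calls. It was named after its values were seen, and its empty group is under the floor of 3 reads.

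The sialidases, which remove sialic acid, had 3 genes tested, all 3 lower and 0 past the threshold (0 at an unadjusted p under 0.05), with a median of -0.25 that rests partly on the low Neu2 and Neu3. Neu1, the lysosomal sialidase, was at 368 ± 9.09 in empty and 352 ± 35.8 in Wnt5a (SD, n = 2; limma adjusted p = 0.830). The 7 enzymes of the ganglioside core, 3 higher and 4 lower, had a median of -0.08 and 0 past the threshold (0 at an unadjusted p under 0.05). Its gene with the highest read count, the lactosylceramide synthase B4galt6, was at 1690.4 ± 220.4 in empty and 1471 ± 47.2 in Wnt5a (limma adjusted p = 0.424).

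NCAM carries its polysialic acid on branched N-glycans, and the 10 branching and trimming enzymes tested had a median of -0.07, with 4 higher, 6 lower and 0 past the threshold (3 at an unadjusted p under 0.05). Man2a1, the Golgi mannosidase, was at 2423 ± 167 in empty and 2299 ± 70.3 in Wnt5a (limma adjusted p = 0.753). Mgat4b, a branching N-acetylglucosaminyltransferase and the other gene called by DESeq2 (adjusted p = 0.014), was at 339 ± 10.8 and 462 ± 30.5, 0.45 apart in log2 units (limma adjusted p = 0.064). It also lies on chromosome 11, and with the chromosome median removed its difference was 0.27 (limma adjusted p = 0.275).

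Of 4 other proteins reported to carry polysialic acid, 2 were expressed enough to test and 0 passed (0 at an unadjusted p under 0.05). Cadm1, the adhesion molecule SynCAM1, was at 2143 ± 87.7 in empty and 2378 ± 58.7 in Wnt5a (SD, n = 2), 0.15 apart in log2 units (limma adjusted p = 0.397). Its Wnt5a samples (2282 to 2480) lay just above its empty samples (1980 to 2267). Of the partners and effectors of NCAM 12 of 14 were tested, 5 higher and 7 lower with a median of -0.03, and 0 passed (1 at an unadjusted p under 0.05). The spectrin Sptbn1, which links NCAM to the cytoskeleton, had the highest read count, at 2489 ± 113 in empty and 2094 ± 270 in Wnt5a, a difference of -0.25 (limma adjusted p = 0.292). Its Wnt5a samples all lay below its empty samples. Sptbn1 also lies on chromosome 11, and with the chromosome median removed its difference was -0.42 (limma adjusted p = 0.150).

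**Figure D3:**
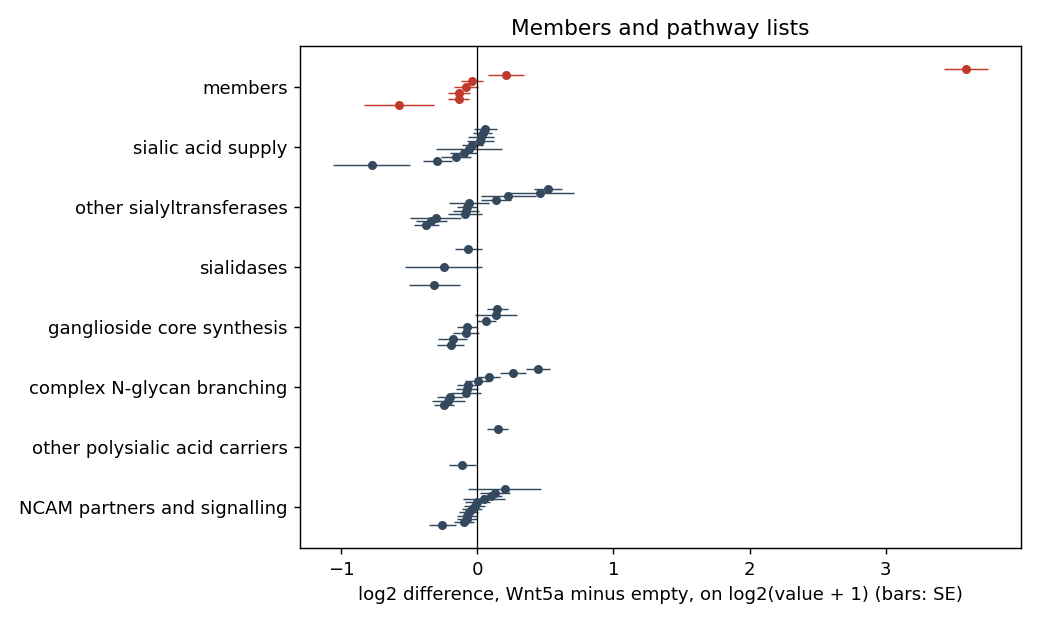
Log2 difference of Wnt5a minus empty on log2(value + 1) (x axis) for the tested members (red, no test made) and for the tested genes of the 7 lists (blue), 1 row per set; points are genes and bars are limma standard errors from 2 libraries per group. St8sia2 stands at 3.59, while the tested list genes lie between -0.77 (Npl) and 0.52 (St6galnac2). List genes too low for the test are not drawn, among them St6gal2 at 3.68 and Fgfr1 at 1.92 in the fit without the filter.

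The genes beside St8sia2 on chromosome 7, chosen by position after its values were seen, did not share its pattern. In RefSeq order the nearest tested gene on one side, Fam174b, was at 180 and 110 in empty A and B and at 183 and 220 in Wnt5a A and B, 0.51 apart in log2 units (limma adjusted p = 0.337). The nearest on the other side, Slco3a1, was at 480 and 434 in empty and 466 and 396 in Wnt5a, a difference of -0.09 (limma adjusted p = 0.780). Of the 10 tested neighbours, 5 on each side, 1 passed, against 2.06% of all genes tested: Sv2b, a synaptic vesicle protein gene, fell by 0.62 log2 units (limma adjusted p = 0.043). The Sv2b call was lost without the filter on low values (adjusted p = 0.118), with a minimum value of 50 (0.068), without the trend in eBayes (0.098), without Wnt5a library A (0.085) and without Wnt5a library B (0.121).

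**Figure D4:**
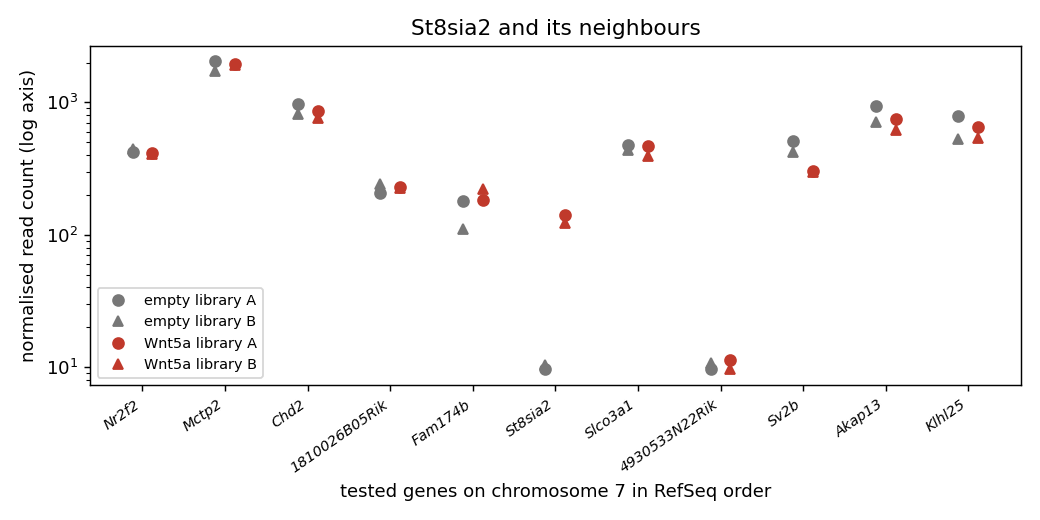
Normalised read count (y axis, log scale) of St8sia2 and the 5 nearest tested genes on each side on chromosome 7, in RefSeq order (x axis, not to scale in distance); circles are library A, triangles library B, grey is empty and red is Wnt5a. St8sia2 separates the groups, from 9.65 and 10.4 to 141 and 123, while Slco3a1 beside it stays between 396 and 480.

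By likeness of profile over the 4 libraries (root mean square distance of centred log2 values), the 5 genes closest to St8sia2 were Cbln4 (0.127), Usp13 (0.134), Crtac1 (0.151), Igsf10 (0.174) and Plcl1 (0.175). Their likeness follows from the choice, and each passed the filter of a mean of at least 10 only through its Wnt5a samples. All 5 had fewer reads than St8sia2 in each library. Usp13, a deubiquitinase gene, had 14 and 13 reads in empty A and B against 214 and 191 in Wnt5a, and Cbln4, of the cerebellin family of synaptic organisers, had 3 and 4 against 96 and 70. Crtac1 had 4 and 6 reads against 151 and 127, Igsf10 had 3 and 2 against 104 and 75, and Plcl1 had 7 and 6 against 183 and 139. Closest to Ncam1 were Myh9, a non-muscle myosin heavy chain (0.0052), Gpd2, a mitochondrial glycerol phosphate dehydrogenase (0.0093), and Zfp622 (0.010). In each of these 3, as in Ncam1, Wnt5a library B stood below the other 3 libraries, with Myh9 at 6319, 6240.2 and 6373 against 5549. That shared pattern follows from how the genes were chosen and is no separate finding.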

How the data were processed

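RNA from 16 samples (8 empty, 8 Wnt5a) was sequenced from 500 ng of total RNA per library, per the labels' protocols. The deposited signal values are gene-level read counts divided by 1 factor per sample. TopHat, Bowtie, HTSeq and DESeq2 are named in the submitters' processing notes; the genome build, annotation and strand setting are not given in the sources used here. Within each file 100% of values were whole multiples of 1 step (0.934 to 1.11; tolerance 0.01), so whole reads were recovered by division. The spread between libraries A and B exceeded counting error and limits the precision of the comparisons; 3 reads are taken as the floor for counting error alone.

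The members and gene lists were chosen with earlier results of these data known. Samples 1 to 4 and 5 to 8 of a group were averaged. The test was limma 3.58.1 (R 4.3.3; lmFit and trended eBayes) of log2(value + 1) for the 12357 genes whose mean value was 10 or more, adjusted by Benjamini-Hochberg, at a threshold of 0.05. Alternatives were edgeR 4.0.16 and DESeq2 1.42.0 on the recovered reads, 16 separate samples, the replicate block, each library left out in turn, pseudocounts of 0.1 and 10, a minimum of 50 or no filter, quantile normalization, median centring, removal of chromosome medians, and eBayes without trend. The length scales for the St8sia2 share were chosen after seeing the data. On simulated data (200 of 12357 genes changed, 5 simulations) limma recovered 95% of 2-fold and 100% of 4-fold changes between the groups. There 4.69% of its calls were false. For library A against B these were 95.4%, 99.8% and 6.15%. The simulated libraries varied independently, with a spread set by mean level alone, and changes under 2-fold were not simulated. In the real data the deviations of same-lettered libraries correlated at 0.44 across genes, so these rates may not hold there.

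Genes named were the 8 members, Wnt5a, up to 3 genes past the threshold per list or else the tested gene of the list with the highest mean value, and the genes most alike to St8sia2 (5) and Ncam1 (3). Gne, Npl, St6gal2, St6galnac2, Mgat4b, Sv2b, the neighbours of St8sia2, and the genes under other observations were named after their values were seen. Chromosomes and gene order come from the RefSeq table of GRCm38.p6 (17240 of 17655 symbols matched, and 379 more by synonym), transcript lengths from GENCODE M21. Promoter sequences from RefSeq matched 5 of the 8 members.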

Additional observations from a re-analysis of the deposited data

How the results depend on the processing

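Each value rests on 2 libraries per group. The log2 difference of St8sia2 stayed between 2.82 (with a pseudocount of 10, which shrinks low genes) and 3.71 with all libraries kept, and between 3.49 and 3.68 with 1 library left out. Its share of the polysialyltransferase sum in Wnt5a was 27.4% per kb of transcript, 16.2% per coding length and 16.8% without division by length. St8sia4 turned to 0.039 with chromosome medians removed. With 1 library left out St8sia1 lay between -0.93 and -0.21, Ncam1 between -0.19 and 0.02, St8sia3 between -0.11 and 0.04 and Ncam2 between 0.03 and 0.39. Wnt5a lay between 3.12 and 3.64 there.

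Against 254 genes called in all (171 higher, 83 lower), no filter gave 146 (130 and 16), a minimum of 50 gave 102 (60 and 42), eBayes without trend 158 (117 and 41), DESeq2 538 (313 and 225), 16 separate samples 4377 (2191 and 2186), and omission of 1 library 138 (without Wnt5a library B) to 1098 (without empty library B); the cause was not tested. In the fits with 1 library left out, the lone library is assumed to vary like the other group. Removing chromosome medians gave 117 higher and 89 lower calls. Of the 53 pathway genes tested, the same settings called 0 except DESeq2 with 2, 16 separate samples with 21, and omission of 1 library with 0 to 4; without the filter St6gal2, not among the 53, also passed. With the library as a replicate block 2095 genes and 11 pathway genes were called (4 higher, 7 lower, among them St6galnac2, Mgat4b and Sptbn1); the labels share sample numbers between groups but do not say that they mark a common source, and the deviations of same-lettered libraries correlated at 0.44 across genes.

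Between libraries A and B, 2 members passed (St8sia1 and Ncam2) with a pseudocount of 10, a minimum of 50, quantile normalization or edgeR, and 0 without the filter or without the trend. Neu1 lay between -0.169 and 0.037 with 1 library left out, the latter without Wnt5a library A.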

Other observations

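Some genes of the lists were too low for the test but had reads. St6gal2, which encodes a sialyltransferase that adds α2,6-linked sialic acid to N-glycans, had 2 reads in all empty and 126 in all Wnt5a libraries. The ratio of its shares of the total reads was 56.2 (exact 95% counting interval 15.2 to 469, counting error only; the empty group is under the floor of 3 reads), and its 8 Wnt5a samples (9.41 to 20.6 normalised reads) lay above its 8 empty samples (0 to 2.04). Fgfr1, a receptor that NCAM engages, had 4 and 3 reads in empty and 30 and 24 in Wnt5a, a ratio of 6.88 (3.12 to 17.9), with a limma adjusted p of 0.053 in the fit without the filter on low values, while its relative Fgfr2 was abundant. Nrp2, a carrier of polysialic acid in immune cells, had 8 reads in all empty and 9 in all Wnt5a libraries, so no difference was detectable at this depth. Cmah, whose product converts Neu5Ac to Neu5Gc, had 63 reads in each group. Since Wnt5a had more reads in total, the ratio of its shares was 0.892 (0.619 to 1.29).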
